A study of Mus musculus with 13 samples.

Results

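The cytosolic ribosomal protein genes are the genes named Rpl or Rps with a number, with or without a, x, l or al after it, together with Rplp0, Rplp1, Rplp2 and Rpsa. Pseudogene symbols and the Rps6k kinase genes were left out. By this rule 82 of the 24411 genes in the bulk table were members, 50 of the large subunit and 32 of the small subunit. All libraries came from skeletal muscle of wild type C57BL/6 mice aged 2 months. The bulk samples were 2 libraries of fresh MuSC (quiescent muscle stem cells, sorted as CD31-, CD45-, Sca1-, VCAM1+ and ITGA7+) and 9 libraries of SMMC (smooth-muscle and mesenchymal-like cells, sorted in the same way but VCAM1-). The SMMC were 3 fresh libraries, 3 proliferating libraries after 3 days of culture, and 3 differentiating libraries from cells that were cultured and then allowed to differentiate for a time the labels do not give. A further 2 droplet libraries held single mononuclear cells of uninjured hindlimb muscle. Nothing in the labels ties a library to its own animal or culture, so the p-values measure the spread between these libraries, which may be technical.

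Each cytosolic ribosome is built from a small subunit, which holds the mRNA and reads its codons, and a large subunit, which joins the amino acids. The ribosomal proteins are needed in near-equal amounts, and their mRNAs are among the most abundant of a growing cell. Many of these mRNAs begin with a run of pyrimidines (a TOP motif), through which mTOR signalling adjusts their translation. Quiescent muscle stem cells are known as small cells with little cytoplasm that enlarge when they are activated.

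The promoters of 6 members are printed because these genes carry the differences described in the following paragraphs. Rps25, Rps2 and Rps27 changed their place among the members between MuSC and SMMC. Rps27l and Rpl3l are paralogs with their own patterns, and Rplp0 had the highest mean FPKM of the members. Each promoter runs from 80 bases before the RefSeq start (GRCm38.p6) to the first 20 transcribed bases of the first exon. Capitals mark CCGGAAG or AAGATGGC on either strand, core letters bound by ETS factors and YY1.
Rps25, chr9:44407634-44407733, plus strand: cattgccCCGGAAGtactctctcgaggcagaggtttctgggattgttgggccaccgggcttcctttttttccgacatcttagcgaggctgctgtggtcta
Rps2, chr17:24719983-24720082, plus strand: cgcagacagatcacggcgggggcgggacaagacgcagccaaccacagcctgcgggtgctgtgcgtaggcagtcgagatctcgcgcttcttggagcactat
Rps27, chr3:90213629-90213728, minus strand: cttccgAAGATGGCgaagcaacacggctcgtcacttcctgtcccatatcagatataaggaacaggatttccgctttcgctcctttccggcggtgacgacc
Rps27l, chr9:66946006-66946105, plus strand: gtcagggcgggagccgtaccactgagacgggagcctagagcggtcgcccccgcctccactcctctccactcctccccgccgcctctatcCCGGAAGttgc
Rplp0, chr5:115559387-115559486, plus strand: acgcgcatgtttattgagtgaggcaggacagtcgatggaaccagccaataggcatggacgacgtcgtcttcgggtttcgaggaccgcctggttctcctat
Rpl3l, chr17:24727746-24727845, plus strand: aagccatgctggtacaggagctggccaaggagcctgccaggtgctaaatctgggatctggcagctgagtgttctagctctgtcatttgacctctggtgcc

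In Rps2 and Rps27l the RefSeq start used lay 1942 and 1462 bases inside the outermost end of the gene. RefSeq promoters of 300 bases, 250 before and 50 after the start, were matched to 61 of the 82 members. CCGGAAG stood in 25 of the 61 (41.0%), against 9.93% of the promoters of all 27025 genes listed. AAGATGGC stood in 5 of the 61 (8.20%), against 3.19% of all. A C followed by 4 pyrimidines, starting within 5 bases of the RefSeq start, occurred in 28 of the 61 (45.9%), against 21.2% of all. Of the promoters printed, those of Rps2, Rps27 and Rps27l had such a run and those of Rps25, Rplp0 and Rpl3l did not. These matches describe letters in a window, and no binding or translation was measured. The members lie on 19 chromosomes, with at most 14 on one of them.

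The bulk values are FPKM, which are corrected for transcript length and for the size of the library. Rankings of genes by FPKM hold for these values only. Their read depth is unknown. Marker genes fitted the labels in part: the summed FPKM of 11 muscle stem cell markers was 28661 to 41368 in MuSC and 827 to 1165 in fresh SMMC, and that of 10 pericyte markers was 103 to 108 against 1504 to 3859. Fresh SMMC also held markers that name other cells, with sums of 9083 to 18546 for 9 tenocyte markers, 762 to 1113 for 10 glial markers and 137 to 497 for 6 erythroid markers, against at most 79.8 for any of these 3 lists in MuSC. The sum of 11 fibro-adipogenic progenitor markers was 4054 to 6998 in fresh SMMC and 871 to 1086 in MuSC. Endothelial markers summed to 139 to 243 against 5.98 to 6.04, and macrophage markers to 120 to 530 against 27.0 to 35.6. The ribosomal RNA precursor Rn45s stood at 113 to 123 FPKM in MuSC and at 23713 to 53713 in all SMMC libraries. In bulk samples, fewer cells of a type and less RNA per cell cannot be told apart.

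The share of all FPKM that came from the 82 members was 5.83% and 3.67% in the MuSC libraries and 3.74%, 3.26% and 2.74% in fresh SMMC. It was 11.4%, 10.3% and 9.55% in proliferating SMMC and 5.50%, 6.22% and 5.68% in differentiating SMMC. All proliferating libraries lay above all others, and the range of the MuSC libraries crossed those of the fresh and the differentiating SMMC. Without Rn45s the shares were 3.67% to 5.83% in MuSC, 3.05% to 4.13% in fresh SMMC, 10.4% to 11.9% in proliferating SMMC and 6.00% to 6.58% in differentiating SMMC; the MuSC range then lay below the differentiating range and still crossed the fresh one. The mitochondrial ribosomal protein genes, which build the separate ribosome of the mitochondrion, took 0.281% ± 0.0763 (SD, n = 2) in MuSC, 0.334% ± 0.0165 (SD, n = 3) in fresh, 1.22% ± 0.122 (SD, n = 3) in proliferating and 1.01% ± 0.0932 (SD, n = 3) in differentiating SMMC.

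**Figure D1:**
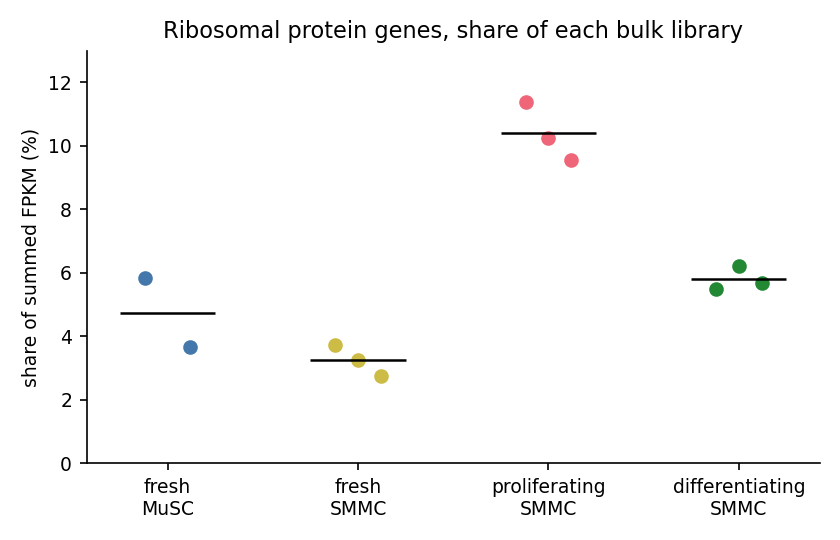
Share of summed FPKM from the 82 ribosomal protein genes in each bulk library (percent, linear axis from 0), by group; points are libraries and lines are group means. The 3 proliferating libraries lie between 9.55% and 11.4%, and the 2 MuSC libraries stand apart from each other at 3.67% and 5.83%.

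Within this set the levels spanned a wide range. By the mean over all 11 libraries the highest were Rplp0, a scaffold of the large subunit's stalk, at 4151 FPKM, Rps2, at the entry of the mRNA channel, at 1803, and Rpl35 at 1167. The lowest were Rpl10l at 0.0663, Rpl39l at 0.791 and Rpl3l at 1.16 FPKM, all paralogs of more widely used members. Rpl26 followed at 2.04 FPKM. This order holds for FPKM only. Rplp0 was 9.01% of the members' FPKM in MuSC, and 2.28% and 3.12% of their counts in muscle stem cell-like single cells. For Rpl26 these shares were 0.00392% against 1.62% and 1.45%. Of the 82 members, 77 were at 1 FPKM or more in every library. The filter of 1 FPKM in 2 libraries kept 81 for testing, all but Rpl10l, which was above 0 in a single fresh SMMC library.

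Fresh SMMC were compared with fresh MuSC to ask how the ribosomal protein mRNAs differ between the VCAM1- and VCAM1+ fractions. The difference was uneven: 8 of 81 members were higher in fresh SMMC, 24 were lower and 49 did not pass the limma test (adjusted p under 0.05). Of all 13233 genes tested 59.7% were called, 41.7% higher and 18.0% lower. For 9 members every fresh SMMC library lay above both MuSC libraries and for 25 below them, against 50.3% and 23.0% of all genes. The members' median log2 change was -0.25, against 0.45 for all genes. Under TMM rescaling 4 members were higher and 52 lower, and 31.5% of all genes were higher and 29.4% lower. This rescaling moved the median of all genes to 0.05, and relative to that median the members lay at -0.70 as deposited, at -0.88 after TMM, at -0.25 after quantile normalization and at -0.32 with no filter on low values.

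The sign of the members' median depended on the MuSC library. This median was 0.21 without MuSC replicate 1 and -0.67 without MuSC replicate 2. Without fresh SMMC replicate 1, 5 members were higher and 24 lower, where 41.5% of all genes were higher and 16.5% lower. In each of these fits the members' median lay below that of all genes, which was 0.58, 0.39 and 0.49; without MuSC replicate 1 the offset was -0.37.

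Rps25, a protein of the small subunit's head that is known for its part in initiation from internal entry sites, stood at 2204 and 2192 FPKM in MuSC. In fresh SMMC it stood at 171, 163 and 120 FPKM. The groups did not overlap, and Rps25 alone made up 10.3% of the members' summed FPKM in MuSC and 0.937% in fresh SMMC. Its log2 change was -3.87 (SE 0.20, limma adjusted p = 1.8e-08), the largest decrease among the members. It was the first of all members in MuSC replicate 2.

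Rps18, which lies at the bridge between the subunits, stood at 1730 and 718 FPKM in MuSC and at 432, 397 and 304 in fresh SMMC. All SMMC values were lower than both MuSC values, which were themselves far apart (log2 change -1.58, SE 0.32, limma adjusted p = 0.0010; -0.94 without MuSC replicate 1). Rps3, which lines the mRNA entry and also acts in DNA repair, stood at 894 and 662 against 330, 291 and 250 FPKM. Its groups did not overlap (log2 change -1.41, SE 0.21, limma adjusted p = 9.2e-05). The other large decreases were those of Rpl23 (-1.44), Rpl5 (-1.40), Rpl7a (-1.33), Rpl10a (-1.27) and Rps12 (-1.22), with limma adjusted p between 2.3e-05 and 0.00033.

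The opposite change was led by small subunit genes. Rps2 stood at 230 and 164 FPKM in MuSC and at 978, 688 and 633 in fresh SMMC (log2 change 1.95, SE 0.23, limma adjusted p = 1.7e-05). Rps27, a zinc finger protein of the small subunit, stood at 11.4 and 9.92 against 47.1, 41.6 and 44.7 FPKM (log2 change 1.96, SE 0.21, limma adjusted p = 7.3e-06). Neither gene's groups overlapped, and Rps27 was among the 8 lowest members by mean level. Rps27l, its paralog and a known p53 target, stood at 132 and 83.0 against 280, 300 and 270 FPKM (log2 change 1.43, SE 0.24, limma adjusted p = 0.00028). Rps4l, a paralog of Rps4x that RefSeq lists as a transcribed pseudogene and the rule keeps by its symbol, stood at 3.95 and 0.825 against 16.8, 14.7 and 28.8 FPKM (log2 change 2.76, SE 0.38, limma adjusted p = 5.7e-05), while Rps4x itself did not pass (-0.09, adjusted p = 0.77). Rpl37a (1.01), Rps21 (0.77), Rpl10 (0.77) and Rpl34 (0.75) were the other members called higher, with limma adjusted p between 0.0093 and 0.042. None of these 4 passed after TMM rescaling (0.42, 0.20, 0.17 and 0.16, adjusted p of 0.25 to 0.56) or without MuSC replicate 2 (0.27, 0.15, 0.35 and 0.55, adjusted p of 0.082 to 0.63).

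**Figure D2:**
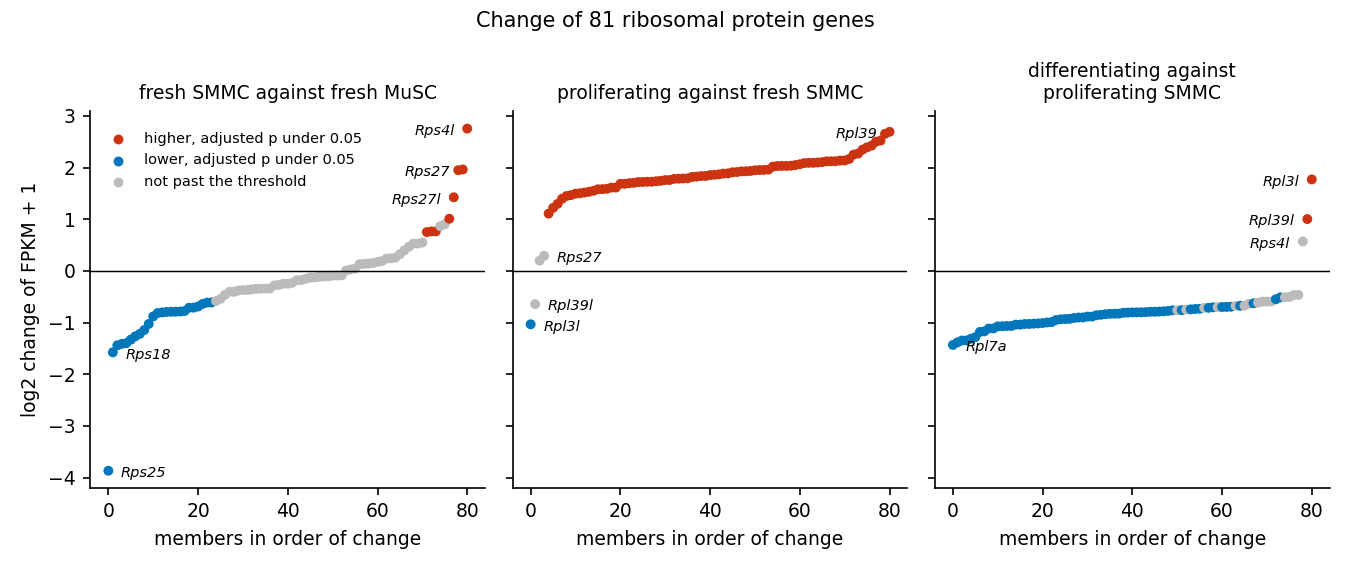
Log2 change of FPKM + 1 of the 81 tested members in the 3 bulk comparisons, each panel in order of change; red is higher and blue lower at a limma adjusted p under 0.05, grey is not past it. Rps25 stands apart at -3.87 in the first panel, and nearly all members lie above 0 in the second (77 called higher) and below it in the third (63 called lower).

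To ask which members changed their place within the set, each library was also divided by the geometric mean of the 77 members measured in all libraries, which removes any scaling they share. On this scale 22 members were higher and 23 lower in fresh SMMC than in MuSC, where 61.9% of all 13882 genes were called, 47.6% higher and 14.3% lower. The increases were led by Rps4l (3.28), Rps27 (2.25), Rps2 (2.21), Rps27l (1.69) and Rpl39l (1.45). The decreases were led by Rps25 (-3.62), Rps18 (-1.32), Rpl23 (-1.19), Rps3 (-1.16) and Rpl5 (-1.14), with limma adjusted p between 6.0e-08 and 0.010 for these 10 members; the call of Rpl39l ended without MuSC replicate 1 (adjusted p = 0.059). With a fit of only these groups, 14 were higher and 10 lower, where 45.3% of all genes were higher and 13.3% lower. Across the 77 members, the log2 profiles of the libraries correlated at r = 0.973 between the MuSC libraries and at 0.994 to 0.997 among fresh SMMC, but at 0.817 to 0.852 between MuSC and fresh SMMC. Between SMMC groups r was 0.953 to 0.988, so the MuSC libraries were the ones that stood apart in the make-up of the set. These correlations are over genes, which are not independent replicates, and the libraries share annotation and length scaling. Rn45s, at 113 to 123 FPKM in MuSC and 23713 to 53713 in SMMC, separated the libraries in the same way. So did the summed ribosomal pseudogene symbols, at 379 and 213 FPKM in MuSC and 49.1 to 148 in SMMC. In comparisons with MuSC, cell type cannot be told apart from library preparation or read assignment.

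Proliferating SMMC were compared with fresh SMMC to describe the change with 3 days of culture. The members rose nearly as a block: 77 of 81 were higher, 1 was lower and 3 did not pass, where 68.5% of all genes were called, 33.1% higher and 35.4% lower. The median log2 change was 1.86, a 3.62-fold rise, against -0.06 for all genes. Over the middle 50 percent of members the change ran from 1.69 to 2.07. For 78 members every proliferating library lay above every fresh library, which held for 34.3% of all genes; the reverse held for 1 member and for 36.7% of all genes.

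**Figure D3:**
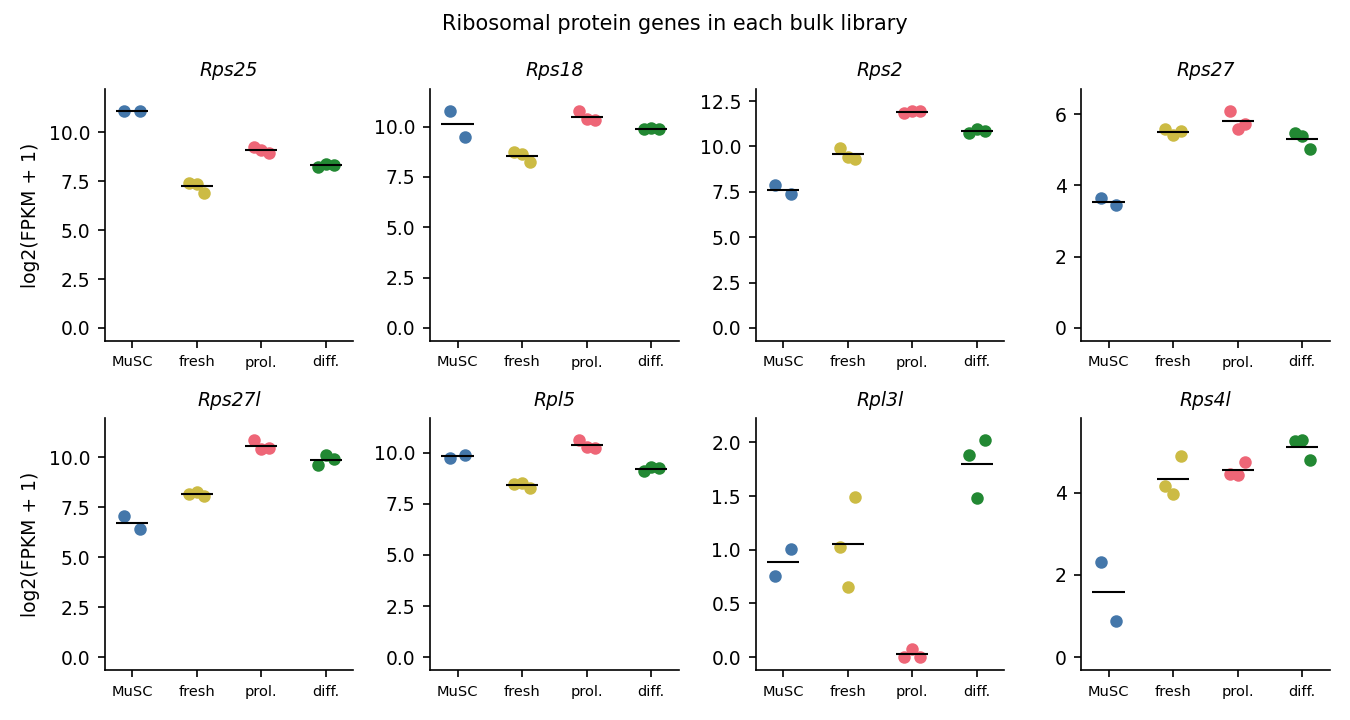
Log2(FPKM + 1) of 8 members in each bulk library; points are libraries, lines are means of the log2 values, and each panel has its own linear axis. Rps25 is highest in the 2 MuSC libraries, Rps2 and Rps27l are highest in proliferating SMMC, and Rpl3l is near 0 there.

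Among the largest increases were those of Rpl39 (2.69), Rpl29 (2.65), Rps27l (2.43), Rps10 (2.39), Rps2 (2.35) and Rpl27 (2.27), with limma adjusted p between 5.9e-07 and 6.7e-06. Rpl39, a very small protein at the exit tunnel of the large subunit, stood at 16.4, 16.4 and 11.3 FPKM in fresh and at 104, 101 and 92.7 in proliferating SMMC. Rps2 stood at 3624, 4009 and 3894 FPKM in proliferating SMMC, all above the fresh values given before. Rps27l stood at 1856, 1341 and 1428 FPKM, also without overlap.

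Rpl3l, the striated muscle paralog of Rpl3, was the only member called lower. It stood at 1.03, 0.577 and 1.81 FPKM in fresh SMMC. In proliferating SMMC it was listed at 0, 0.0532 and 0 (log2 change -1.03, SE 0.23, limma adjusted p = 0.0014). The members that did not pass were Rps27 (0.29, adjusted p = 0.19), Rps4l (0.20, adjusted p = 0.62) and Rpl39l (-0.64, adjusted p = 0.14). Rps27 thus stood at 67.4, 47.2 and 51.3 FPKM against the fresh values of 41.6 to 47.1. The proliferating values were all above the fresh ones, by a small margin. Scaled to the members, 11 were higher and 13 lower, where 76.6% of all genes were called, 6.51% higher and 70.0% lower. Among the largest of these changes were Rpl26 (1.08), Rpl39 (0.88) and Rpl29 (0.79) upward, and Rpl3l (-1.67), Rps4l (-1.59), Rps27 (-1.54) and Rpl39l (-1.31) downward. Without proliferating replicate 3 the scaled counts were 8 higher and 8 lower, where 5.49% of all genes were higher and 68.5% lower.

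Markers of other cells moved in the same comparison. The summed tenocyte markers went from 9083 to 18546 FPKM in fresh SMMC to 7.52 to 22.4 in proliferating SMMC, with 8 of 9 lower. The pericyte markers went from 1504 to 3859 to 10.7 to 17.4, with 10 of 10 lower, and the 6 erythroid markers from 137 to 497 to at most 0.0819. Muscle fibre markers summed to 78.4 to 141 FPKM in fresh and 625 to 1785 in proliferating SMMC, with 5 of 8 higher and 0 lower. Muscle stem cell markers summed to 827 to 1165 in fresh and 1624 to 1704.5 in proliferating SMMC, with 5 of 11 higher and 4 lower. The part of all these cells in the change of the ribosomal protein genes was not tested.

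Differentiating SMMC were compared with proliferating SMMC. Here 63 of 81 members were lower, 2 were higher and 16 did not pass, where 40.5% of all genes were called, 20.9% higher and 19.6% lower. The median log2 change was -0.80, a 1.74-fold fall, against 0.00 for all genes. For 78 members every differentiating library lay below every proliferating one, which held for 25.1% of all genes; the reverse held for 2 members and for 25.9% of all genes. Among the largest decreases were those of Rpl7a (-1.43), Rps12 (-1.38), Rpl26 (-1.35), Rpl12 (-1.35), Rpl31 (-1.31) and Rpl5 (-1.17), with limma adjusted p between 5.6e-05 and 0.0059. Rpl7a was at 659 ± 102 FPKM (SD, n = 3) in proliferating and 242 ± 24.3 (SD, n = 3) in differentiating SMMC.

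The members called higher were Rpl3l and Rpl39l. Those higher without overlap were Rpl3l and Rps4l. Rps4l stood at 34.0 ± 6.20 against 22.4 ± 2.83 FPKM (SD, n = 3 each) and did not pass. Rpl3l stood at 2.70, 1.79 and 3.06 FPKM in differentiating SMMC, all above its values of 0 to 0.0532 in proliferating SMMC (log2 change 1.77, SE 0.23, limma adjusted p = 6.7e-05). Rpl39l stood at 1.56, 3.45 and 0.239 against 0.476, 0.0468 and 0.133 FPKM (1.00, SE 0.37, limma adjusted p = 0.047), and its groups overlapped. With any single library of these groups left out other than differentiating replicate 3, 1 member was called higher. The share of all genes called higher in those fits was 16.9% to 19.0%. The 8 muscle fibre markers rose in the same comparison, from 625 to 1785 to 18353 to 22910 summed FPKM, and their part in the values of Rpl3l was not tested. Scaled to the members, 5 were higher and 6 lower, where 40.7% of all genes were called, 36.1% higher and 4.58% lower. Among these were Rpl3l (1.80), Rps4l (1.38), Rpl39l (1.12) and Rpl35 (0.35) upward, and Rpl7a (-0.58), Rps12 (-0.53), Rpl12 (-0.50) and Rpl31 (-0.46) downward. With a fit of only these groups the upward count was 10, where 49.7% of all genes were higher. Leaving out single libraries gave 2 to 4 higher and 1 to 4 lower. In these fits 28.5% to 33.3% of all genes were higher and 3.15% to 4.54% lower. The counts were 4 and 2 without proliferating replicate 1, 2 and 1 without replicate 2, and 2 and 3 without replicate 3. They were 2 and 1 without differentiating replicate 1, and 3 and 4 without differentiating replicate 2.

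Among the paralogs, Rpl3, Rpl39 and Rps4x were far more abundant than Rpl3l, Rpl39l and Rps4l. Rpl3 was at 1202 ± 97.9 FPKM (SD, n = 3) in proliferating SMMC against 0.0177 for Rpl3l, and Rpl39 was at 99.5 ± 6.07 (SD, n = 3) against 0.219 for Rpl39l. Rps4x was at 523 ± 55.1 (SD, n = 3) against 22.4 ± 2.83 (SD, n = 3) for Rps4l. In Rps27 and Rps27l the order was the other way: 10.7 ± 1.04 against 108 ± 34.7 FPKM in MuSC (SD, n = 2) and 55.3 ± 10.7 against 1542 ± 276 in proliferating SMMC (SD, n = 3). A further symbol, Rps27rt, lies outside the rule and stood at 469 ± 51.5 FPKM in fresh SMMC (SD, n = 3). The 3 genes have closely related coding sequences, the deposited FPKM do not show how reads matching several of them were assigned, and their levels are therefore uncertain. Rpl36a stood at 41.6 to 56.3 FPKM in the fresh SMMC libraries and Rpl36al, the higher of these, at 63.0 to 90.5.

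The stalk of the large subunit, which recruits elongation factors, is formed by Rplp0, Rplp1 and Rplp2 on the base of Rpl12. Rplp0 stood at 2844 and 1358 FPKM in MuSC, 2621, 2171 and 1771 in fresh SMMC, 8965, 7859 and 6797 in proliferating SMMC, and 3293, 4260 and 3717 in differentiating SMMC. MuSC and fresh SMMC overlapped, and proliferating SMMC were above all others. Rplp2 was the stalk gene called between MuSC and fresh SMMC (-0.79, limma adjusted p = 0.011), a call that ended without MuSC replicate 1 (-0.42, adjusted p = 0.15). Rplp0 (0.14, adjusted p = 0.73), Rplp1 (-0.40, adjusted p = 0.19) and Rpl12 (-0.34, adjusted p = 0.23) did not pass. All 4 rose in proliferating SMMC, with Rpl12 (2.09) and Rplp2 (2.07) ahead of Rplp0 (1.86) and Rplp1, and fell in differentiating SMMC, by 0.63 to 1.35. The call of Rplp1 in differentiating SMMC (limma adjusted p = 0.045) ended with any single library of these groups left out (adjusted p up to 0.12), and the calls of Rplp1 and Rplp0 ended with no filter on low values (adjusted p of 0.090 and 0.072).

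Rpl5 and Rpl11 bind 5S rRNA, and as a free particle with it they can hold the p53 ligase Mdm2. Rpl5 stood at 860 and 949 FPKM in MuSC and at 353, 365 and 312 in fresh SMMC, without overlap. Rpl11 stood at 213 and 96.0 against 126, 115 and 92.8 FPKM, with overlap, and did not pass (-0.37, limma adjusted p = 0.28). Both rose in proliferating SMMC (1.96 and 2.04) and fell in differentiating SMMC (-1.17 and -0.94). Rps27a, which encodes ubiquitin joined to a small subunit protein, did not pass between MuSC and fresh SMMC (0.53, adjusted p = 0.12), rose in proliferating SMMC (1.79) and fell in differentiating SMMC (-0.76, limma adjusted p = 0.029). The last call ended without proliferating replicate 1 or 2 or differentiating replicate 1 or 3 (adjusted p up to 0.084).

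Of the other small subunit genes, Rpsa, known also as a laminin receptor, was lower in fresh SMMC than MuSC (-0.71, limma adjusted p = 0.023), as was Rps19, a gene of Diamond-Blackfan anaemia (-0.88, limma adjusted p = 0.028). Both calls ended without MuSC replicate 1, at -0.26 (adjusted p = 0.33) for Rpsa and -0.22 (adjusted p = 0.43) for Rps19. Rps6, the target of S6 kinase, did not pass (-0.15, adjusted p = 0.63). All 3 rose in proliferating SMMC, by 1.40 to 1.93. In differentiating SMMC, Rpsa (-1.11) and Rps6 (-0.93) fell and Rps19 did not pass (-0.70, adjusted p = 0.064).

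Ribosomal protein genes that the rule does not hold were read beside the members. Gnb2l1 (Rack1), a scaffold on the small subunit's head, stood at 485 and 368 FPKM in MuSC, 94.6, 89.7 and 77.8 in fresh SMMC, 491, 443 and 385 in proliferating SMMC, and 160, 210 and 164 in differentiating SMMC. It was lower in fresh SMMC than MuSC (-2.27), rose in culture (2.32) and fell on differentiation (-1.30), with limma adjusted p of 0.00015 or less. Rps3a1 was lower in fresh SMMC (-0.73, limma adjusted p = 0.0071). Rpl7l1 was called lower (-0.75) and Rpl22l1 higher (0.68), but the first call ended without MuSC replicate 1 (-0.27, limma adjusted p = 0.34) and the second without MuSC replicate 2 (0.22, adjusted p = 0.43) or after TMM rescaling (0.09, adjusted p = 0.76). Fau (0.08, adjusted p = 0.84) did not pass in that comparison. These 4 rose in proliferating SMMC, by 1.15 to 1.81.

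Genes that work with the ribosomal proteins were read as lists. Of 24 translation factors and other TOP mRNAs, 4 were higher and 8 lower in fresh SMMC than MuSC, 22 were higher and 1 lower in proliferating than fresh SMMC, and 1 was higher and 11 lower in differentiating than proliferating SMMC. In the same order, 41.7%, 33.1% and 20.9% of all genes were higher, and 18.0%, 35.4% and 19.6% were lower. The list medians were -0.31, 1.49 and -0.57. Of 43 ribosome biogenesis genes the counts were 3 higher and 25 lower, then 38 higher and 1 lower, then 0 higher and 35 lower, with medians of -0.94, 1.63 and -1.16. Npm1, a nucleolar chaperone in both lists, stood at 415, 347 and 256 FPKM in fresh, 2963, 2500 and 2262 in proliferating, and 432, 537 and 567 in differentiating SMMC. Proliferating SMMC held the highest values without overlap.

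Myc, which drives transcription of ribosomal genes, was lower in culture. It stood at 102 and 102 FPKM in MuSC, 83.0, 76.6 and 67.5 in fresh SMMC, 23.1, 21.8 and 16.7 in proliferating SMMC and 5.08, 10.1 and 5.65 in differentiating SMMC. It fell from fresh to proliferating SMMC by 1.84 on the log2 scale (limma adjusted p = 1.6e-05). Of the 25 genes of Myc and mTOR control, 5 were higher and 9 lower in that comparison, against 33.1% and 35.4% of all genes. Of 14 genes of p53 and its targets, 6 were higher and 4 lower in the same comparison. In differentiating against proliferating SMMC, 9 of the p53 list were higher and 1 lower, against 20.9% and 19.6% of all genes. Among them Cdkn1a, an inhibitor of the cell cycle, went from 253 ± 67.0 to 1356 ± 63.3 FPKM (SD, n = 3 each) in the last comparison. Of 77 mitochondrial ribosomal protein genes, 33 were higher and 7 lower in fresh SMMC than MuSC, a share of higher calls near that of all genes (41.7%), 75 were higher and 0 lower in proliferating than fresh SMMC, and 12 were lower and 0 higher in differentiating than proliferating SMMC. Their medians were 0.56, 2.02 and -0.24.

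Most members followed one course over the 11 libraries. The correlation of a member's log2 value with the mean of the others was highest for Rpl23a at r = 0.996, and lowest for Rpl3l at -0.47, Rpl39l at -0.07, Rps25 at 0.14, Rps4l at 0.44 and Rps27 at 0.48. The genes outside the set whose course was most like the members' mean were Wdr55 (r = 0.997), Apex1, Cct3, Eif2s1 and Eif4a3 (0.991 to 0.992), over the same 11 libraries. These values are descriptions, and all points share the normalization of their library.

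In the single-cell libraries 80 of the 82 members were listed. The libraries held 6144 and 6297 cells, with 19353328 and 15507938 UMIs and medians of 2516 and 2027 UMIs per cell. Of these UMIs 19.8% and 19.2% came from the members, and 53 cell barcodes occurred in both libraries. Cells were clustered without any ribosomal protein gene and named from marker genes, so the members played no part in the classes. The named classes held 9466 of 12334 cells, and 23.3% stayed unnamed. Among the unnamed was a cluster of 1063 cells, 777 of them in library 2, with 6 B cell markers among its top 100 genes. The B cell-like class held 1458 cells in library 1 and 320 in library 2, so its values leave out cells unevenly between libraries.

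**Figure D4:**
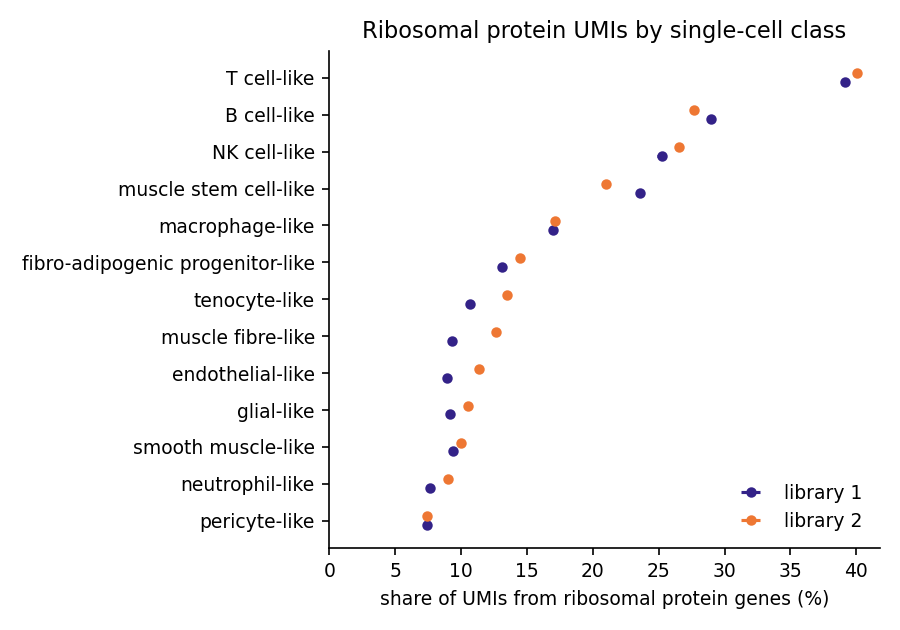
Share of a class's UMIs that came from the ribosomal protein genes (percent, linear axis from 0) for each named class and both single-cell libraries; bars, mostly smaller than the points, are 95% Wilson intervals of counting error. T cell-like cells are highest at 39.2% and 40.1%, and pericyte-like cells, by pooled UMIs, lowest at 7.42% and 7.45%.

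T cell-like cells had the highest share, 39.2% (95% Wilson interval 39.1% to 39.2%) in library 1 and 40.1% (40.0% to 40.1%) in library 2. B cell-like cells followed with 29.0% and 27.7%, and muscle stem cell-like cells had 23.6% and 21.0%. These classes lay above every stromal class in both libraries. Macrophage-like cells had 17.0% and 17.1%, fibro-adipogenic progenitor-like cells 13.1% and 14.5%, and tenocyte-like cells 10.7% and 13.5%. Endothelial-like cells had 8.90% and 11.3%, smooth muscle-like cells 9.37% and 10.0%, and pericyte-like cells 7.42% and 7.45%.

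The classes with under 50 cells in a library were NK cell-like (25.2% and 26.5%), glial-like (9.18% and 10.5%), neutrophil-like (7.66% and 9.0%) and muscle fibre-like (9.33% and 12.6%). The pooled share of neutrophil-like cells was far above that of the typical cell, whose median was 3.27% and 4.18%, below the cell medians of 6.14% and 6.23% in pericyte-like cells. The order was not the order of depth: the median was 3189 and 2241 UMIs in T cell-like cells, 5585 and 3767 in fibro-adipogenic progenitor-like cells, and 2104 and 1491 in pericyte-like cells. Intervals cover counting error only.

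Mural-like cells (pericyte-like and smooth muscle-like together) were compared with muscle stem cell-like cells on UMIs summed per library. Of 80 members tested, 0 were higher and 78 lower, where 28.2% of all 11676 genes were called, 16.3% higher and 11.9% lower (edgeR quasi-likelihood test, adjusted p under 0.05, libraries as a block). The members' median log2 change was -1.64, against 0.07 for all genes. By the ratio of CPM the median was -1.53 in library 1 and -1.32 in library 2, so both libraries held the direction. Rpl3l and Rpl39l did not pass, with at most 2 UMIs and 1 UMI per library in muscle stem cell-like cells.

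The largest decrease was that of Rplp0, at 1276 and 1709 CPM (UMIs scaled to a fixed total per class and library) in mural-like cells and 5390 and 6562 CPM in muscle stem cell-like cells (log2 change -2.24, edgeR adjusted p = 1.2e-06). Rps4x stood at 1093 and 1120 against 5148 and 3060 CPM, and Rps2 at 1311 and 1562 against 3644 and 3206 CPM, all lower in mural-like cells in both libraries. Gene lists moved as well: of 24 translation factors and TOP mRNAs 20 were lower and 0 higher, and of 42 ribosome biogenesis genes 29 were lower and 0 higher. Of 76 mitochondrial ribosomal protein genes 14 were lower and 2 higher.

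Set side by side, the bulk and the single-cell comparison were led by different members, and the sign of the members' bulk median rested on the MuSC library kept, as given before. Rps25, at 10.3% of the members' FPKM in bulk MuSC, held 0.887% and 0.984% of the members' UMIs in muscle stem cell-like cells. In pericyte-like cells it held 1.03% and 1.02%, and its log2 change of -1.49 lay above the members' median. Rps2 was higher in fresh SMMC than MuSC in bulk (1.95), and lower in mural-like than muscle stem cell-like cells (-1.46, edgeR adjusted p = 0.00033). Rps27 was likewise higher in bulk (1.96) and lower in single cells (-1.44, edgeR adjusted p = 0.00061). These are unscaled changes. Relative to the members, Rps2 and Rps27 lay above the set in bulk (2.21 and 2.25). In single cells they lay above the members' median by 0.18 and 0.20. Rpl26 stood at 0.0410 to 6.03 FPKM in every bulk library, while it held 1.62% and 1.45% of the members' UMIs in muscle stem cell-like cells, at 3820 and 3057 CPM.

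**Figure D5:**
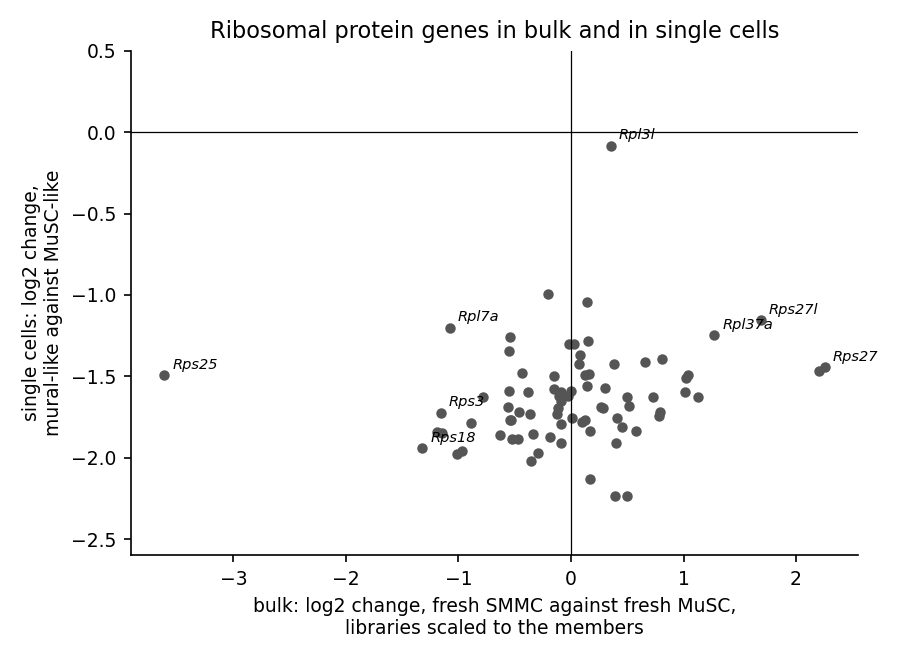
Log2 change of members between mural-like and muscle stem cell-like cells (vertical) against the bulk change between fresh SMMC and fresh MuSC after scaling each library to the members (horizontal), both linear; Rpl39l, with 1 UMI in muscle stem cell-like cells, is left out. Rps25 lies far to the left at -3.62 in bulk and at -1.49 in single cells, close to the upper quartile of the members (-1.49) on the vertical axis.

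Over the 80 members in both, Pearson's r between the bulk change scaled to the members and the single-cell change was 0.26, a description across genes that includes the sparsely counted Rpl39l and Rpl3l. Of 21 members called higher on the scaled bulk values, 14 lay above the members' single-cell median, and of 23 called lower, 15 lay below it. The bulk FPKM cover whole transcripts of sorted cells and the UMIs count tags at the 3′ end, and the sort gates were not applied to the single cells. Mural-like cells also match fresh SMMC only in part. Summed FPKM in fresh SMMC were 1504 to 3859 for pericyte and 1238 to 1887 for smooth muscle markers. They were 9083 to 18546 for tenocyte and 4054 to 6998 for fibro-adipogenic progenitor markers. Which of these sets the difference was not tested. In the gene name table, 60 members have between them 298 pseudogene symbols. Rpl34-ps1, a pseudogene symbol left out by the rule, stood at 346 and 189 FPKM in MuSC and at 68.5, 58.2 and 42.2 in fresh SMMC, and was lower in fresh SMMC (log2 change -2.19, limma adjusted p = 1.7e-05). It is named here after its values were seen. The sources used here do not state how reads that match several copies were assigned.

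The make-up of the set differed little between single-cell classes. Over 9 classes with at least 50 cells in each library, 78 members held at least 0.1% of the members' UMIs on average, and for 70 of them the highest class was less than 2 times the lowest. The median ratio was 1.43, from shares averaged over both libraries. Rps27l was the one member over 3 times, with 0.0244% and 0.0350% in T cell-like cells and 0.390% and 0.396% in macrophage-like cells, a ratio of 13.2. In T cell-like cells this was 211 and 256 UMIs, or 95.5 CPM (95% Poisson interval 83.1 to 109) and 140 CPM (124 to 158). In macrophage-like cells it was 662 and 678 CPM, above the T cell-like values in both libraries. Rpl12, the stalk base, was next, with a ratio of 2.33 between T cell-like and endothelial-like cells.

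Rpl3l was found chiefly in muscle fibre-like cells, with 29 UMIs in 12 cells of library 1, or 811 CPM (95% Poisson interval 543 to 1165), and 15 UMIs in 12 cells of library 2, or 378 CPM (211 to 623). In each other class of each library it had at most 3 UMIs. Pericyte-like cells had 0 UMIs in both libraries, where the limit of 3 counts is 7.24 and 8.70 CPM and the upper end of the 95% Poisson interval 8.91 and 10.7 CPM. Rpl39l had 57 and 22 UMIs in fibro-adipogenic progenitor-like cells (13.1 and 8.80 CPM) and 17 and 28 in tenocyte-like cells (11.2 and 14.8 CPM), against 0 and 1 UMI in muscle stem cell-like cells. In bulk, Rpl39l stood at 0 and 0.0108 FPKM in MuSC and at 1.52, 0.466 and 0.802 in fresh SMMC, and did not pass (limma adjusted p = 0.079). Tenocyte markers summed to 9083 to 18546 FPKM in fresh SMMC and to 16.7 to 41.0 in differentiating SMMC. Rpl39l was at 1.75 ± 1.61 FPKM (SD, n = 3) in differentiating SMMC. A link of Rpl39l to tenocytes in bulk was not tested.

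The single-cell libraries also differed from each other in the make-up of the set. In all 9 of these classes, 12 members took a larger share of the members' UMIs in library 2, among them Rps27, Rps28, Rps29, Rpl37, Rpl38 and Rpl41, and 28 members took a larger share in library 1. Rps27 held 3.90% in library 1 and 5.15% in library 2 in B cell-like cells, and 1.84% and 2.92% in tenocyte-like cells.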

How the data were processed

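Bulk values were FPKM per gene symbol, as the authors deposited them. Single-cell values were UMI counts, whole numbers in the deposited tables. Per the submitters' processing notes, the tools included Cell Ranger 2.1.0 and 2.2.0, HISAT2 2.1.0, STAR 2.5.1b, Seurat 2.2 and 2.3.4 and StringTie, with build mm10; which made which table is not stated. For the annotation and for reads with several matches, no source used here gives a setting. The bulk table also held 4 columns that matched no sample and were not used.

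Genes with 1 FPKM or more in 2 libraries were tested with limma 3.58.1 in R 4.3.3 (trend) on log2(FPKM + 1), all 11 libraries in one fit with 7 residual degrees of freedom, two-sided, Benjamini-Hochberg over all genes, threshold 0.05. Log2 changes are on this scale, which understates the change of low genes. A second fit divided each library by its members' geometric mean. Cells were clustered in scanpy 1.11.5 without ribosomal protein genes (2000 variable genes, 30 components, resolution 1). Scrublet removed 52 and 55 cells (0.846% and 0.873%) as doublets. A cluster was named from at least 3 of a class's markers among its top 100 genes (5 where none was in the top 10), with no other class ahead in the top 10, by a rule set after the clusters were seen. UMI counts summed per class and library were tested with edgeR 4.0.16; DESeq2 1.42.0 was an alternative. The fits were tested on simulated data.

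Genes named were the 8 largest called increases and decreases per comparison, 5 on the scaled values, members of listed roles, symbols just outside the rule with Fau and Gnb2l1, the 3 highest and 3 lowest, up to 3 per list and 5 by likeness; some genes this rule names are not reported here. Rpl34-ps1, Rpl26 in single cells and the members that differ between the single-cell libraries were chosen after their values were seen. The members and lists were chosen with earlier results of these data known. Promoters came from RefSeq (GRCm38.p6). Alternatives were other pseudocounts, filters, scalings, fits, a replicate block and leaving out each library. Whether same-numbered libraries pair could not be settled. Over 15 such pairs the correlation of deviations from the group mean ran from -0.128 to 0.142, with 2 over 0.1. Differently numbered pairs ran from -0.263 to 0.288. Deviations from means of 2 or 3 libraries constrain each other, so these values cannot exclude pairing.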

Additional observations from a re-analysis of the deposited data

How the results depend on the processing

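In the comparison of fresh SMMC with MuSC, TMM rescaling gave 4 members higher and 52 lower with a median of -0.82. Of all genes 31.5% were higher and 29.4% lower under this rescaling. The cause was not tested. Leaving out single libraries gave 4 to 24 higher, 9 to 47 lower and medians from -0.67 to 0.21, the positive value without MuSC replicate 1. Scaled to the members, a fit of only these groups gave 14 higher and 10 lower, and leaving out libraries 16 to 23 higher and 18 to 23 lower. On unscaled values the replicate block gave 9 higher and 23 lower, where 40.2% of all genes were higher and 17.6% lower. The block moved no count of members by over 1.5 times in any bulk comparison. The libraries share only a number, and the data could not settle whether it pairs them.

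For proliferating against fresh SMMC, quantile normalization gave a median of 1.51 and leaving out libraries 1.76 to 1.96. The filter at 10 FPKM, which removes Rpl3l, left 0 members lower, where 32.9% of all genes were lower. Scaled to the members, leaving out libraries gave 8 to 10 higher and 8 to 12 lower, the 8 lower without proliferating replicate 3. In those fits 5.49% to 7.09% of all genes were higher and 65.0% to 71.0% lower. For differentiating against proliferating SMMC, 1 member was higher with no filter on low values, with TMM rescaling or with quantile normalization. These settings called 12.4%, 19.4% and 18.8% of all genes higher. With the filter at 10 FPKM, where Rpl3l and Rpl39l are not tested, 0 members and 23.3% of all genes were higher. Leaving out libraries gave 1 to 2 higher and 46 to 57 lower, where 16.9% to 19.9% of all genes were higher and 15.3% to 19.6% lower. Scaled to the members, 3 were higher with the filter at 10 FPKM and 10 with a fit of only these groups, against 44.8% and 49.7% of all genes. On this scale leaving out libraries gave 2 to 4 higher and 1 to 4 lower. The shares of all genes were then 28.5% to 33.3% and 3.15% to 4.54%. In single cells the median was -1.48 with RLE size factors and -1.48 with DESeq2. DESeq2 called 0 members higher and 78 lower, against 18.0% and 9.21% of all genes. Without replicate 1 the median was -1.32 and without replicate 2 it was -1.53, values with no test. Without the replicate block 75 members and 8.62% of all genes were lower.

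Of 131 calls of single genes, over 1667 alternative values, 1538 kept their direction and stayed past the threshold, 129 kept their direction and did not, and 0 reversed. Those lost under 8 or more alternatives were Rpl39l and Rps27 in differentiating SMMC, Rps21 in fresh SMMC and Rps27rt in proliferating SMMC. Quantile normalization and leaving out Rn45s moved the median of all genes in fresh SMMC against MuSC to -0.03 and 0.56, and the members lay at -0.25 and -0.73 relative to it. In proliferating SMMC these moved it to 0.14 and -0.28, with the members at 1.36 and 1.93. The depth of the bulk libraries is unknown, and MuSC had 2 libraries.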
